A study of Mus musculus with 9 samples.

Results

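Transcript levels of 8 dual-specificity MAP kinase phosphatases, Dusp1, Dusp2, Dusp4, Dusp5, Dusp6, Dusp7, Dusp10 and Dusp16, were examined among the 24346 genes listed in the files. They were taken by name as the catalytically active family members with a MAP kinase binding domain, apart from Dusp8 and Dusp9, which were at most 0.105 FPKM in any library. RNA-seq had been performed on 9 libraries of sorted B cells from the spleen of wild-type C57BL6 mice. There were 3 libraries each of follicular (FO) B cells from 8-wk-old mice, FO B (Young), of FO B cells from 50-wk-old mice, FO B (Aged), and of age-associated B cells (ABCs) from 50-wk-old mice, ABCs (Aged). FO B cells had been sorted as B220hi CD43- CD23+ CD21lo, and ABCs as B220hi CD43- CD23- CD21lo CD11b+ CD11c+, with 3 mice per group according to the methods. The comparisons addressed how ABCs differ from FO B cells of the same age and of young mice, and how FO B cells differ with age. No young ABC library was analysed here, so cell subset within the aged mice and age within FO B cells were the comparisons that changed 1 condition at a time.

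MAP kinases (ERK, JNK and p38) carry signals from antigen receptors, Toll-like receptors and cytokine receptors to the nucleus. They are active only when both a threonine and a tyrosine in their activation loop are phosphorylated, and MAP kinase phosphatases remove both phosphates. Dusp1, Dusp2, Dusp4 and Dusp5 are nuclear and are transcribed rapidly after stimulation, several of them in response to ERK itself, which makes them feedback inhibitors. Dusp6 and Dusp7 are cytoplasmic and prefer ERK, whereas Dusp10 and Dusp16 act mainly on JNK and p38.

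The stretches just upstream of 4 members are shown because the results turn on these genes. Dusp1, Dusp5 and Dusp10 were higher in ABCs, and Dusp6 was the most abundant of the members that were lower. Sequences are from RefSeq (GRCm38.p6), 5′ to 3′ on the strand of the gene, from the 250 bases before the annotated start site, without bases annotated as UTR or coding. Capitals mark matches to 5 motifs searched on both strands: the cyclic AMP response element TGACGTCA, the AP-1 site TGANTCA, the E-box CACGTG, the EGR site GCGNGGGCG and the CArG box, which is the binding motif of serum response factor.
Dusp1, chr17:26508520-26508722, minus strand: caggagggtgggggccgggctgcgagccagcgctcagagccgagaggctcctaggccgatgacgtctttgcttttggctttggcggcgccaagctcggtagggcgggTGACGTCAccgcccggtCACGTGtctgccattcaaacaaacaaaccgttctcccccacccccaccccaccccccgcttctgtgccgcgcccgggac
Dusp5, chr19:53528895-53529108, plus strand: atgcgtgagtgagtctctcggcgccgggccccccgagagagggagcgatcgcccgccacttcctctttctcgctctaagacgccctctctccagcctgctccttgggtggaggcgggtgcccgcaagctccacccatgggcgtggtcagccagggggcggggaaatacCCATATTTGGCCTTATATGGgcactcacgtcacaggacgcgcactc
Dusp10, chr1:184034131-184034380, plus strand: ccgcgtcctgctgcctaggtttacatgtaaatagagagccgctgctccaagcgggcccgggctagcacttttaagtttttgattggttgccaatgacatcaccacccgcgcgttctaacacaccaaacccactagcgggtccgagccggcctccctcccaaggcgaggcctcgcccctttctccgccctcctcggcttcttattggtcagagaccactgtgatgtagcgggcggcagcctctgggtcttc
Dusp6, chr10:99262981-99263230, plus strand: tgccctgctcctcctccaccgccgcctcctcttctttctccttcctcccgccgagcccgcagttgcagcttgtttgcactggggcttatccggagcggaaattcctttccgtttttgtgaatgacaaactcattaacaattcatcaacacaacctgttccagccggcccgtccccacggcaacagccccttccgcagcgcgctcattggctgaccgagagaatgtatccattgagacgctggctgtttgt
In Dusp1, TGACGTCA began 143 bases and CACGTG 126 bases before the start site, and the matches did not overlap. In Dusp5, a pair of CArG boxes lay back to back, beginning 82 and 72 bases before the start site. At least 2 CArG boxes occurred in 6 of all 32851 windows of this length (0.0183%), and at least 1 in 1.47%. A share with at least 2 matches was taken only for this motif, the one found as a pair, so it is no test of a link to the Dusp5 level. TGACGTCA occurred in 1.55% of windows, TGANTCA in 6.75%, CACGTG in 6.02% and GCGNGGGCG in 4.7%. The printed stretches of Dusp6 and Dusp10 held none of the 5 motifs, which says only that these letters were not in that window. Among the other members matched (7 of 8 in all), Dusp2 held an E-box 109 bases and an EGR site 98 bases before its start, Dusp16 an EGR site at 138 bases, and Dusp7 none. For Dusp7 and Dusp16 the start site in the promoter table lies inside the gene span given below, so it is not the outermost start. These matches are a description of sequence, and their part in the levels below was not tested.

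The libraries held about 7250000 to 8810000 mapped reads each, as estimated from the smallest steps in the FPKM values of 1100 genes. Between 10032 and 10445 genes reached 1 FPKM in a library. Transcripts of 3 of the 4 sort markers examined followed the gates. Fcer2a, which encodes CD23, was 697 to 1036 FPKM in FO B libraries and 0.464 to 6.95 in ABCs. Itgax, which encodes CD11c, was at most 0.206 in FO B libraries and 45.0 to 59.7 in ABCs, and Itgam, which encodes CD11b, was at most 0.980 and 46.2 to 65.7. Cr2, which encodes CD21, differed although both populations had been gated CD21lo, at 127 to 166 FPKM in FO B libraries and 0.745 to 8.39 in ABCs. Cd79a, which encodes a B cell receptor subunit, was 2462 to 3562 FPKM in all 9 libraries.

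Between ABCs (Aged) and FO B (Aged), the phosphatase transcripts moved in both directions. Dusp10, Dusp5 and Dusp1 were higher in ABCs, by 5.91-, 3.99- and 2.61-fold in mean FPKM, and Dusp7, Dusp4 and Dusp6 were lower, by 4.50-, 4.09- and 2.84-fold. Dusp2, the most abundant member, and Dusp16 did not pass the test. In limma on log2(FPKM + 1), 3 of 8 members were called higher, where 19.4% of the 10412 genes tested were, and 3 of 8 lower, where 16.5% were, at a false discovery rate (FDR) under 0.05 over all genes tested. Genes were tested where their mean reached 1 FPKM, which Dusp4 did only through FO B (Aged). The median log2 fold change was -0.10 over the members and -0.01 over all genes tested. Exact two-sided permutation tests on single members gave p = 0.1, the smallest that 3 libraries against 3 allow, for every member except Dusp2, for which p = 0.4. At an unadjusted p under 0.05 in limma, 7 members and 4862 of the 10412 genes tested differed. The share of all genes whose libraries did not overlap between the groups was not computed. In sorted bulk cells, fewer cells that transcribe a gene and less RNA per cell cannot be told apart.

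**Figure D1:**
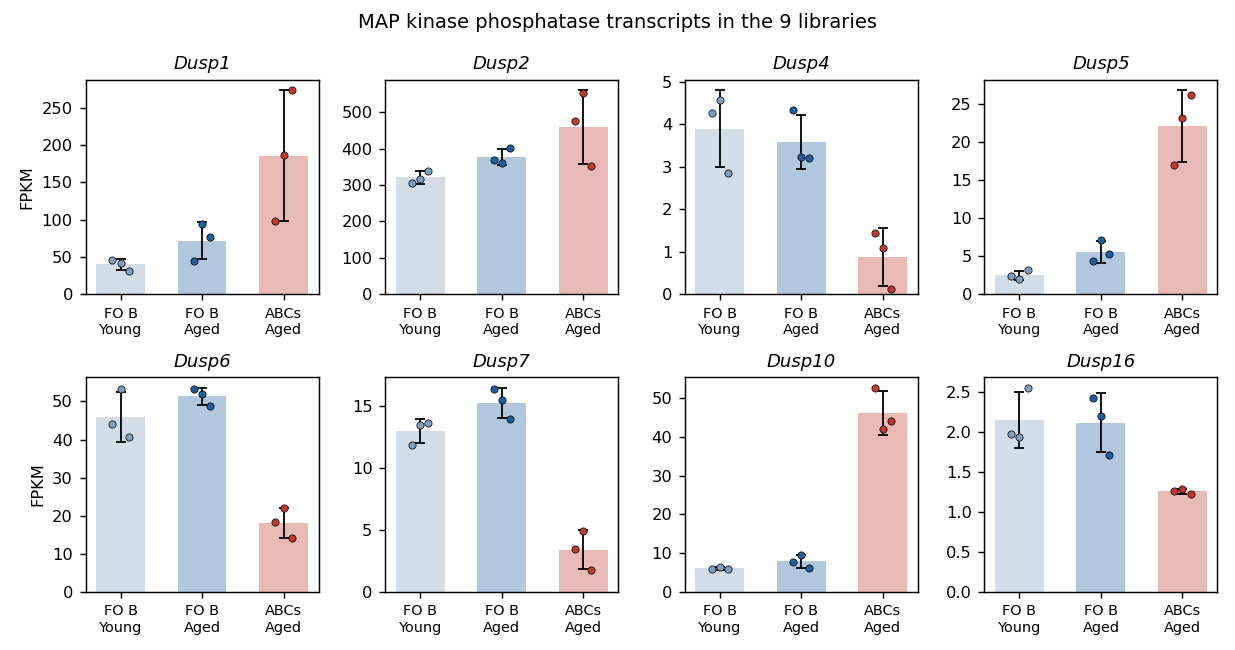
FPKM (y axis, linear from 0, a separate scale for each gene) of the 8 phosphatase genes in FO B (Young), FO B (Aged) and ABCs (Aged). Bars are means, whiskers SD and points single libraries (n = 3 per group). All 3 ABC points lie above both FO B groups for Dusp1, Dusp5 and Dusp10, and below them for Dusp4, Dusp6, Dusp7 and Dusp16. The share of all genes separated in this way was not computed.

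Among the nuclear, inducible members, Dusp5 is the one that selectively inactivates ERK and holds it in the nucleus. Its level was 2.39, 1.93 and 3.12 FPKM in FO B (Young), 4.30, 7.08 and 5.25 in FO B (Aged), and 16.9, 23.2 and 26.2 in ABCs (Aged). The 3 groups did not overlap, with ABCs highest and FO B (Young) lowest. The log2 fold change between ABCs and FO B (Aged) was 1.82 ± 0.20 (SE, FDR = 0.000702, limma), and the difference was called with any 1 of the 6 libraries left out. The gene lies on chromosome 19 (53529145-53541809, plus strand, GRCm38.p6) and overlaps the antisense gene AC137853.2. Because the libraries were not stated to keep strand, reads of the pair cannot be told apart.

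Dusp1, which acts on p38, JNK and ERK and is a classical immediate-early transcript, varied widely between libraries. It reached 46.2, 41.4 and 31.6 FPKM in FO B (Young), 44.4, 93.4 and 76.2 in FO B (Aged), and 97.9, 186 and 274 in ABCs (Aged). Every ABC library lay above every FO B library, but the lowest ABC value was close to the highest of FO B (Aged), and the ABC values differed widely among themselves. The log2 fold change was 1.31 ± 0.40 (SE, FDR = 0.0387, limma). The call did not hold when FO B (Aged) replicate 1 or 3 or ABCs (Aged) replicate 2 or 3 was left out (FDR = 0.121, 0.0837, 0.0897 and 0.0660), and its log2 fold change ranged from 0.98 to 1.71 over all 6 such fits. It held with the replicate number as a block (FDR = 0.00565, limma) and with all 9 libraries in the fit (FDR = 0.0164, limma). The gene lies on chromosome 17 (26505591-26508472, minus strand), and a transcript that GENCODE assigns to it reaches into Ergic1.

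Dusp2, a phosphatase of activated haematopoietic cells, had the highest level of the members in every library. It was at 306, 318 and 339 FPKM in FO B (Young), 367, 361 and 402 in FO B (Aged), and 475, 553 and 352 in ABCs (Aged). The gene lies on chromosome 2 (127336159-127338377, plus strand). The third ABC library lay below all of FO B (Aged), and the other two lay above. The log2 fold change was 0.26 ± 0.16 (SE, 95% interval -0.10 to 0.63, FDR = 0.226, limma), and without ABCs (Aged) replicate 3 it was 0.44 (FDR = 0.00689).

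Dusp4, a nuclear phosphatase of ERK and JNK, lies on chromosome 8 (34807610-34819894, plus strand) and went the other way. It was at 4.26, 4.57 and 2.86 FPKM in FO B (Young), 4.33, 3.24 and 3.20 in FO B (Aged), and 1.43, 1.09 and 0.109 in ABCs (Aged). All ABC libraries lay below all FO B libraries, and the third ABC library was far below the others. Read numbers recovered from the FPKM steps (within 0.02 of a whole number) were 78, 71 and 63 in FO B (Aged) and 26, 22 and 2 in ABCs (Aged), so counting error is large here. Dusp4 fell by 1.36 ± 0.30 on the log2 scale (SE, FDR = 0.0120, limma), and the FDR was 0.0518 without FO B (Aged) replicate 1. At a mean of 0.878 FPKM in ABCs, Dusp4 passed the filter of 1 FPKM only through FO B cells. With no filter on low values its FDR was 0.0295 (limma).

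The cytoplasmic ERK phosphatases moved together. Dusp6, whose transcription is a common readout of ERK activity, was at 44.2, 53.3 and 40.6 FPKM in FO B (Young), 53.4, 51.9 and 48.9 in FO B (Aged), and 18.3, 21.9 and 14.2 in ABCs (Aged). Dusp7, which shares its preference for ERK, was at 11.8, 13.5 and 13.6 FPKM in FO B (Young), 16.4, 15.5 and 14.0 in FO B (Aged), and 3.49, 4.92 and 1.77 in ABCs (Aged). For both genes the ABC libraries lay well below all 6 FO B libraries, and the third ABC library was the lowest. Dusp6 fell by 1.47 ± 0.15 (SE, FDR = 0.000407, limma) and Dusp7 fell by 1.95 ± 0.26 (SE, FDR = 0.00141, limma) on the log2 scale between FO B (Aged) and ABCs. Both calls held with any 1 library left out. Dusp6 lies on chromosome 10 (99263231-99267489) and Dusp7 on chromosome 9 (106368560-106375724), both on the plus strand.

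The phosphatases of JNK and p38 did not move alike. Dusp10 was at 5.98, 6.41 and 5.79 FPKM in FO B (Young), 7.81, 9.41 and 6.25 in FO B (Aged), and 52.7, 42.0 and 44.0 in ABCs (Aged). No ABC library came near any FO B library, and the ABC values were close to each other. Its log2 fold change of 2.43 ± 0.15 (SE, FDR = 6.33e-05, limma) had the largest size among the 8 members at this pseudocount and lay between 2.3 and 2.56 with any 1 library left out. With a pseudocount of 0.01 the value was 2.58 for Dusp10 and -2.63 for Dusp4. The gene lies on chromosome 1 (184034381-184075636, plus strand). In GENCODE its span begins further upstream, at 184013302, and only that longer span overlaps the antisense gene 1700056E22Rik, itself listed at 0.489 to 2.08 FPKM.

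Dusp16 was at 1.97, 1.93 and 2.56 FPKM in FO B (Young), 2.43, 2.21 and 1.71 in FO B (Aged), and 1.27, 1.29 and 1.23 in ABCs (Aged). The ABC libraries were lower than all FO B libraries, at a level near the filter of 1 FPKM. The gene lies on chromosome 6 (134715468-134807063, minus strand) and overlaps the antisense gene Gm36328. Against FO B (Aged) its log2 fold change was -0.46 ± 0.15 (SE, FDR = 0.0555, limma), with a 95% interval of -0.82 to -0.09. The FDR was 0.0186 after quantile normalization, 0.0185 without the trend in limma and 0.0303 with all 9 libraries in the fit.

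Between FO B (Aged) and FO B (Young), 0 of 8 members were called in limma in either direction, where 0.346% of the 10122 genes tested were called higher and 0.119% lower. At an unadjusted p under 0.05, 4 members and 1298 genes differed. The median log2 fold change was 0.23 over the members and 0.00 over all genes tested. The largest value belonged to Dusp5, 2.24-fold higher in mean FPKM in aged cells with ranges that did not overlap (log2 fold change 0.90 ± 0.19 SE, FDR = 0.109, limma). Dusp2 (0.23 ± 0.06 SE, FDR = 0.174) and Dusp7 (0.22 ± 0.09 SE, FDR = 0.378) also had ranges that did not overlap between the ages. How many of all genes had such ranges was not computed. Dusp1 had a log2 fold change of 0.78 ± 0.25 (SE, FDR = 0.242), with FO B (Aged) replicate 1 inside the range of young cells. For Dusp4 and Dusp16 the values were -0.09 ± 0.18 and -0.02 ± 0.16 (SE).

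Against FO B (Young), ABCs (Aged) differ in both cell subset and age, and the comparison shares its ABC libraries with the one above. All 8 members were called, 4 higher where 21.6% of 10438 genes were, and 4 lower where 19.1% were. Dusp5 was 8.91-fold and Dusp10 7.63-fold higher in mean FPKM, with log2 fold changes of 2.72 ± 0.19 (SE, FDR = 7.69e-05, limma) and 2.74 ± 0.10 (SE, FDR = 6.47e-06, limma). Dusp1 had a log2 fold change of 2.1 ± 0.35 (SE, FDR = 0.00300, limma), and this call, unlike the one against aged cells, held with any 1 library left out. The values for Dusp4, Dusp6 and Dusp7 were -1.44 ± 0.31, -1.31 ± 0.17 and -1.73 ± 0.26 (SE). Dusp2 (0.50 ± 0.15 SE, FDR = 0.0385) and Dusp16 (-0.47 ± 0.15 SE, FDR = 0.0389) passed narrowly in limma, and with the replicate block neither did (FDR = 0.0628 and 0.0859). The Dusp2 call held only without ABCs (Aged) replicate 3 among the 6 fits with 1 library left out (highest FDR = 0.115), and the Dusp16 call in none (FDR between 0.0597 and 0.124).

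**Figure D2:**
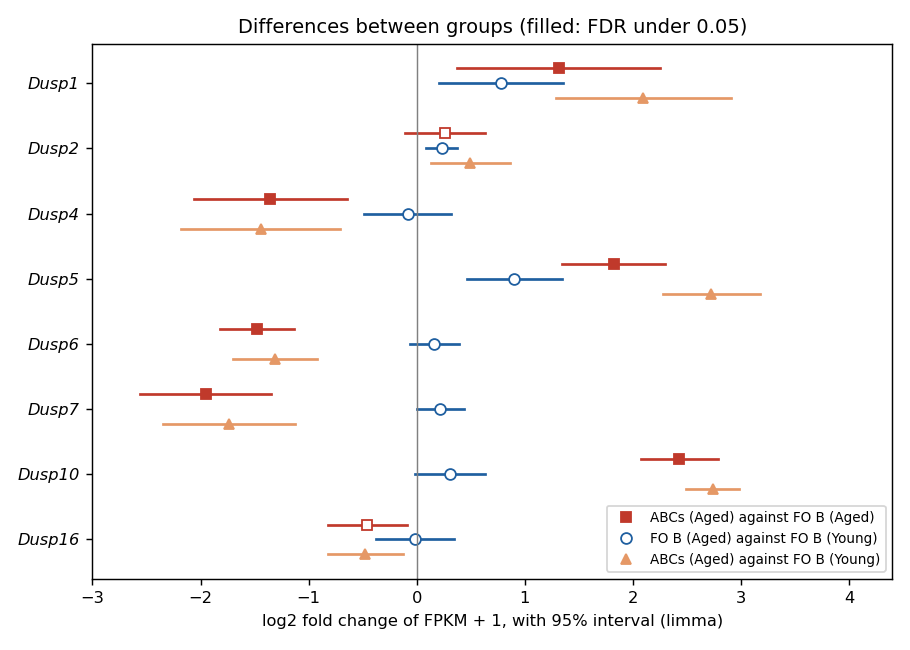
log2 fold change of FPKM + 1 (x axis) for each phosphatase gene (y axis) in the 3 comparisons, with the 95% interval from limma (lines) and filled symbols for FDR under 0.05. The squares and triangles, which share the ABC libraries, lie on the same side of 0 for each gene, whereas the circles, FO B (Aged) against FO B (Young), lie between -0.09 and 0.90 and none is filled.

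The makeup of the phosphatase pool, per transcript length, differed accordingly. The summed level of the 8 genes was 422, 441 and 439 FPKM in FO B (Young), 500, 544 and 558 in FO B (Aged), and 667, 834 and 713 in ABCs (Aged). Dusp2 made up 66.4% to 77.2% of the sum in FO B libraries and 71.2%, 66.4% and 49.3% in ABCs. The share of Dusp1 was 7.20% to 17.2% in FO B libraries and 14.7%, 22.3% and 38.4% in ABCs, so the third ABC library was the one in which Dusp1 took most and Dusp2 least.

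Within a library, the order of the JNK- and p38-directed Dusp10 and the ERK-directed Dusp6 turned over, which restates their opposite calls. The ERK-selective Dusp5 was also higher in ABCs, so this holds for the pair and not for groups of members by substrate. Dusp6 was the more abundant in all FO B libraries, with a Dusp10 to Dusp6 ratio of FPKM of 0.120 to 0.181, and Dusp10 the more abundant in all ABC libraries, with ratios of 2.89, 1.92 and 3.11. The ratio of Dusp10 to Dusp16, its partner in substrate preference, was 2.26 to 4.27 in FO B libraries and 32.6 to 41.6 in ABCs. In FO B (Young) the order of mean levels was Dusp2, Dusp6, Dusp1, Dusp7, Dusp10, Dusp4, Dusp5 and Dusp16, where the ranges of Dusp6 and Dusp1, of Dusp4 and Dusp5, and of Dusp5 and Dusp16 overlapped. In FO B (Aged) it was Dusp2, Dusp1, Dusp6, Dusp7, Dusp10, Dusp5, Dusp4 and Dusp16, with overlap between Dusp1 and Dusp6, Dusp10 and Dusp5, and Dusp5 and Dusp4. In ABCs it was Dusp2, Dusp1, Dusp10, Dusp5, Dusp6, Dusp7, Dusp16 and Dusp4, with overlap between Dusp5 and Dusp6 and between Dusp16 and Dusp4.

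Other phosphatases of the superfamily were examined in the same way. Of the 15 atypical dual-specificity phosphatases, which lack the MAP kinase binding domain, 8 were tested between ABCs and FO B (Aged), 2 rose and 0 fell, where 19.4% and 16.5% of all genes tested did. The genes that rose were Dusp23 (5.53 ± 0.263 against 2.63 ± 0.512 FPKM, SD, n = 3 each, log2 fold change 0.86, FDR = 0.00387, limma) and Dusp19 (11.1 ± 1.18 against 6.49 ± 1.40 FPKM, SD, n = 3 each, log2 fold change 0.70, FDR = 0.0117, limma). Dusp8, Dusp9 and the pseudophosphatase Styxl1 were below 1 FPKM and were not tested. Of the 7 Sprouty and Spred genes, which are feedback inhibitors acting upstream of ERK, Spry2 alone was tested and was higher in ABCs (1.99 ± 0.495 against 0.145 ± 0.106 FPKM, SD, n = 3 each, FDR = 0.00186, limma). It passed the filter of 1 FPKM only through its ABC values, so its call was largely set by the filter.

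Genes of the ERK, JNK and p38 cascades, which include the MAP kinases on which these phosphatases act, were also compared. Their counts are to be read against the same 19.4% of all genes called higher and 16.5% called lower. Of the ERK cascade, 8 of 9 genes were tested between ABCs and FO B (Aged), 0 rose and 3 fell: Mapk3, Map2k1 and Braf, by 0.75, 0.54 and 0.51 on the log2 scale (highest FDR = 0.00946, limma). Of the JNK cascade, 8 of 9 genes were tested, and 1 rose (Map3k1, log2 fold change 0.47, FDR = 0.0474, limma) and 1 fell (Map2k7, by 0.47, FDR = 0.0142, limma).

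In the p38 cascade, 8 of 9 genes were tested, 2 rose and 2 fell, a share in each direction near that of all genes tested. The p38 beta gene Mapk11 was 98.5, 72.6 and 94.0 FPKM in FO B (Aged) and 15.0, 8.80 and 15.4 in ABCs, and the p38 gamma gene Mapk12 was 21.8, 19.7 and 33.8 in FO B (Aged) and 2.90, 3.94 and 4.61 in ABCs. Neither gene overlapped between these groups, and they fell by 2.69 ± 0.22 (SE, FDR = 0.000187, limma) and 2.42 ± 0.22 (SE, FDR = 0.000307, limma) on the log2 scale. Mapk14, which encodes p38 alpha, was 49.4 ± 0.510 FPKM in ABCs and 56.0 ± 2.1 in FO B (Aged) (SD, n = 3 each, FDR = 0.0621, limma). Map2k6, a kinase that activates p38, and Mapkapk3, a kinase that p38 activates, were higher in ABCs (log2 fold changes 0.60 and 0.40, FDR = 0.0292 and 0.00928, limma). Between FO B (Aged) and FO B (Young), 0 genes of the 3 cascades were called, where 0.346% of all genes tested were higher and 0.119% lower. Against FO B (Young), 1 ERK cascade gene (Araf) was higher and the same 3 were lower, 0 JNK cascade genes were called, and 2 p38 cascade genes were higher and 4 lower, Mapk11 and Mapk12 among them. Of all genes tested against FO B (Young), 21.6% were higher in ABCs and 19.1% lower.

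**Figure D3:**
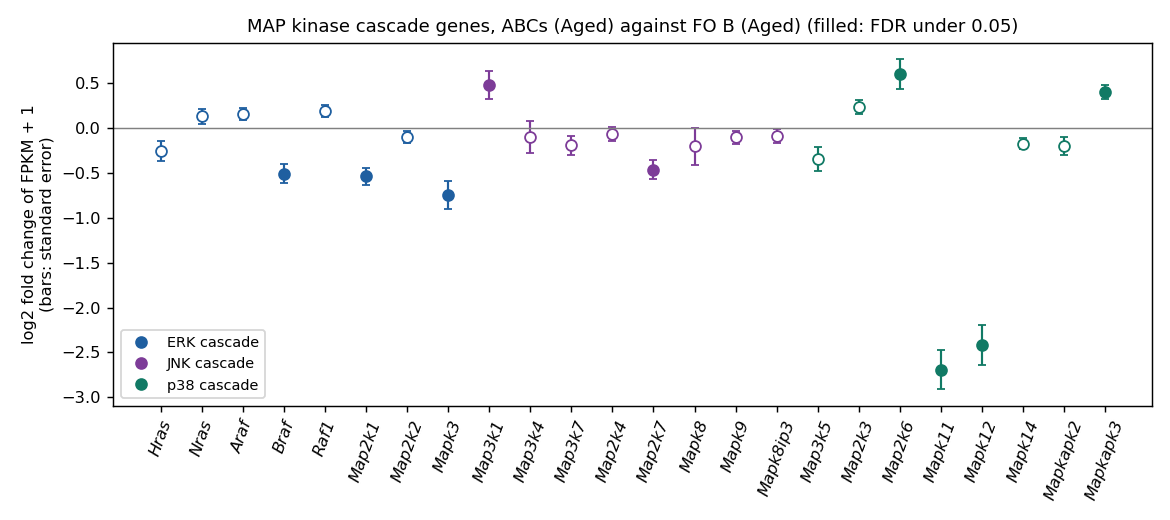
log2 fold change of FPKM + 1 between ABCs (Aged) and FO B (Aged) (y axis, bars are SE from limma) for the tested genes of the ERK, JNK and p38 cascades (x axis), filled where the FDR was under 0.05. Mapk11 and Mapk12 lie at -2.69 and -2.42, and the other genes between -0.75 and 0.60.

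Immediate-early transcripts, which many of the same signals induce, differed in both directions. Of 18 immediate-early and ERK-induced genes, 16 were tested between ABCs and FO B (Aged), 7 rose and 3 fell, where 19.4% and 16.5% of all genes tested did. The median log2 fold change was 0.21 over this list and -0.01 over all genes tested. Fos was 97.7, 184 and 180 FPKM in FO B (Aged) and 444, 722 and 810 in ABCs (log2 fold change 2.1 ± 0.30 SE, FDR = 0.00200, limma), and Egr1 rose by 1.97 ± 0.29 (SE, FDR = 0.00219, limma). Egr2, Fosb, Jun, Junb and Ier2 were also higher. Myc fell by 1.24 ± 0.15 (SE, FDR = 0.000862, limma), Egr3 by 1.17 ± 0.19 (SE, FDR = 0.00361, limma) and Btg2 by 0.29 ± 0.08 (SE, FDR = 0.0245, limma). Between FO B (Aged) and FO B (Young), 2 of 15 tested genes of this list rose (Junb and Ier2) and 0 fell. Of all genes tested between these groups, 0.346% rose and 0.119% fell.

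**Figure D4:**
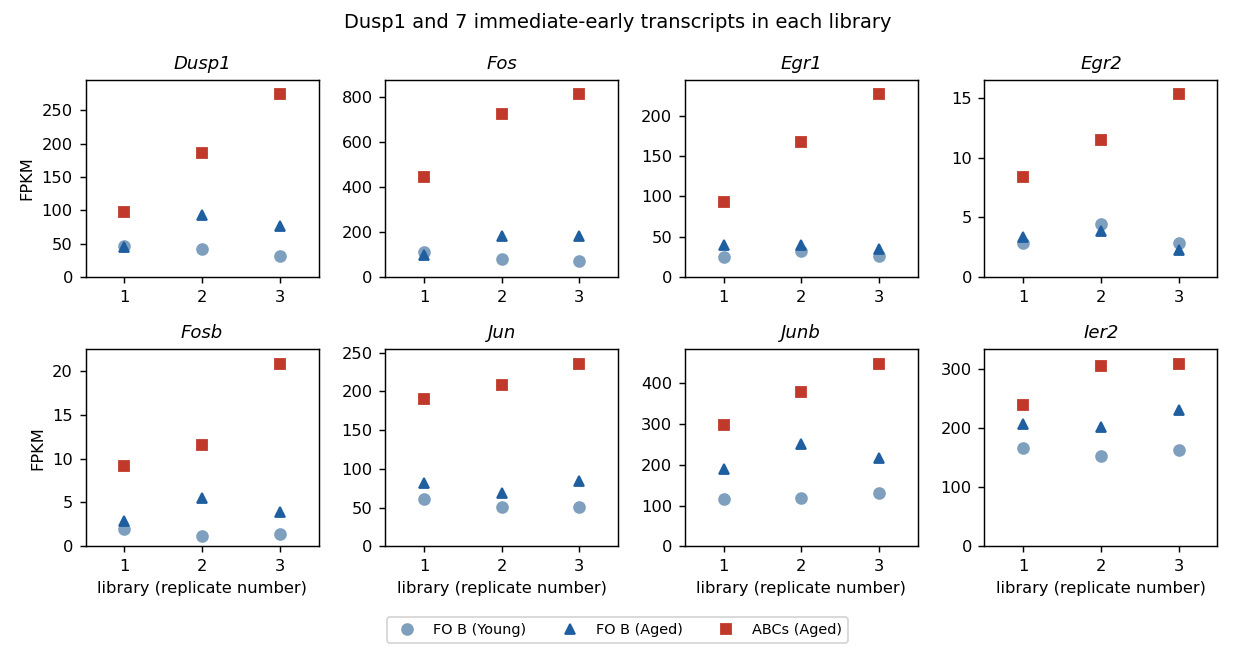
FPKM (y axis, linear from 0) of Dusp1 and of the 7 immediate-early genes called higher in ABCs than in FO B (Aged), for each library by its replicate number (x axis, a name and not an order). In all 8 panels ABCs (Aged) replicate 1 is the lowest and replicate 3 the highest of the ABC libraries, and every ABC value lies above every FO B value. The 7 genes were chosen by their call in these same libraries, so their separation from FO B (Aged) largely follows from the choice.

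The library order of Dusp1 among ABCs was thus shared with these 7 genes, which were chosen by their call. The order in the other tested genes of the list is not shown here. The summed level of the immediate-early list was 1954, 2587 and 2855 FPKM in ABCs replicates 1, 2 and 3, against 1482 to 1631 in aged and 1197 to 1283 in young FO B cells. A list of 19 genes known to be induced by tissue dissociation and sorting, 10 of which are also on the immediate-early list, summed to 3642 to 4621 FPKM in ABCs, 2883 to 3562 in aged and 2076 to 2355 in young FO B cells. Of its 15 tested genes, 6 rose in ABCs against FO B (Aged) (Fos, Egr1, Jun and Junb among them) and 1 fell. Of all genes tested, 19.4% rose and 16.5% fell. In FO B (Aged) against FO B (Young), where 0.346% of all genes tested rose, 3 of 14 rose, led by Socs3 (14.3 ± 2.56 against 3.15 ± 0.650 FPKM, SD, n = 3 each, FDR = 0.00356, limma). The part of cell handling in the Dusp1 and Dusp5 levels was not tested.

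Markers of other cells were measured beside these results. The summed level of 6 B lineage genes was 7461 to 7829 FPKM in FO B libraries and 6345 to 8199 in ABCs. The defining T cell gene Cd3e was at 0 in 8 of 9 libraries and at most 0.0996 FPKM, and the NK cell gene Ncr1 at 0 in 8 of 9 and at most 0.0882. Summed T cell markers were nonetheless 0.981 to 2.98 FPKM in FO B libraries and 5.20 to 39.4 in ABCs, mainly Cd3g, and summed NK cell markers 0.830 to 3.73 and 27.7 to 38, mainly Prf1, which encodes perforin. Summed macrophage and monocyte markers were 8.18 to 26.8 FPKM in FO B libraries and 17.9 to 25.5 in ABCs, and neutrophil markers 0 to 21.5 and 0.128 to 0.645. Of all genes tested, 19.4% were called higher in ABCs than in FO B (Aged) and 16.5% lower, and the following counts are to be read against these shares. Of 6 B lineage genes tested, 1 was called higher (Cd22) and 2 lower (Ebf1 and Pax5). Of the tested genes, 1 of 1 T cell, 1 of 2 NK cell and 1 of 4 macrophage and monocyte genes were higher (Cd3g, Prf1 and Cd68). Cd3g, at 0 in all FO B (Aged) libraries, and Prf1, at a mean of 0.816 FPKM there, passed the filter of 1 FPKM only through ABCs. Their calls were therefore largely set by the filter. Of 2 neutrophil genes, 1 was lower (S100a9), which at a mean of 0.12 FPKM in ABCs passed the filter only through FO B (Aged). Of 5 plasma cell genes, 3 were higher (Jchain, Prdm1 and Sdc1), and of 5 germinal center genes, 1 was higher (Fas) and 2 lower (Bcl6 and Mef2b). Among the 6 plasma cell genes listed, 2 had a mean under 1 FPKM in FO B (Aged). At least 1 of the 5 tested therefore passed the filter only through ABCs, and which one is not shown here. Plasma cell markers summed to 110 to 148 and 191 to 225 FPKM, and germinal center markers to 40.9 to 61.6 and 118 to 128, the latter mainly Fas. The part of any such cells in the phosphatase levels was not tested.

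Members were compared with each other and with all genes by the shape of their profiles, as the root mean square difference between log2(FPKM + 1) values centred on each gene's mean over the 9 libraries. The most alike members were Dusp4 and Dusp6 (0.237), Dusp6 and Dusp7 (0.266) and Dusp4 and Dusp7 (0.334), followed by Dusp5 and Dusp10 (0.408) and Dusp1 and Dusp5 (0.433). Among 10375 genes, the profiles most like Dusp10 were those of Bhlhe40, a transcriptional repressor (0.153), the chemokine receptor Ccr1 (0.168) and Trabd2b (0.179). Those most like Dusp1 were Klf4 (0.192), Fosb (0.267) and Birc5 (0.318), and most like Dusp5 were Gm7609 (0.208), Fosb (0.256) and Meis3 (0.279).

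For the lower members, the most alike profiles were Rph3al (0.0693), Sgms1 (0.105) and Qser1 (0.116) for Dusp6, and Gch1 (0.120), Sidt1 (0.141) and Vav3 (0.157) for Dusp7. They were Slamf9 (0.128), Atp1b1 (0.133) and Eid1 (0.188) for Dusp4, and Ccdc39 (0.0608), Dcun1d1 (0.0687) and Kansl1l (0.0725) for Dusp16. For Dusp2 they were Rhoh (0.0884), Cd82 (0.0921) and Ddt (0.0987). A small difference is easier to reach for a gene that varies little, as Dusp2 and Dusp16 did, and the libraries of a group share whatever sets that group apart. The scale also understates changes of low genes. Rph3al had a mean of 2.71 FPKM in FO B (Aged) and 0.297 in ABCs, and Qser1 2.18 and 0.245. These are larger falls in proportion than that of Dusp6, from 51.4 to 18.1.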

How the data were processed

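Total RNA of sorted spleen B cells had been converted to full-length cDNA (SMART-Seq HT kit), per the methods. The authors deposited FPKM values (fragments scaled to transcript length and to the mapped reads of the library), 1 per gene symbol in each of 9 libraries, mapped to mm10. The submitters' processing notes name TopHat2 2.1.1, Bowtie2 2.2.8, SAMtools 0.1.18 and Cuffdiff 2.2.1, and the methods name other versions of some of these. FPKM is relative to the library total, so a gene's value also depends on all others.

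FPKM was tested as log2(FPKM + 1), a scale that understates changes of low genes, with limma 3.58.1 (R 4.3.3, lmFit and eBayes with trend) over the 6 libraries of each comparison, for genes whose mean reached 1 FPKM. Benjamini-Hochberg FDR under 0.05 over all genes tested was the call. All 8 members passed the filter in each comparison, Dusp4 in the ABC comparisons only through its FO B values. Single members were also tested by exact two-sided permutation (20 orders). P-values measure the spread among the 3 libraries of each group, taken as independent, although aged FO B and ABC libraries may share mice. The script was tested on simulated data. From gene lists, at most 4 called genes with the largest change were to be named, and for each member the 3 nearest profiles. Btg2, Egr3, Jun, Junb, Ier2, Myc, Mapk14, Cd3e, Ncr1, the sort markers and the top genes of marker sums were named outside that rule, after their values were seen. The members and lists were chosen with earlier results of these data known, and some listed genes and sort markers are not reported here. Alternatives covered the pseudocount, filter, scaling, trend, libraries in the fit, replicate block, thresholds and leaving out each library.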

Additional observations from a re-analysis of the deposited data

How the results depend on the processing

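With the study's thresholds of a log2 fold change above 2.3 and FDR under 0.01, 1 member was higher (Dusp10) and 0 lower in ABCs against FO B (Aged), and 2 higher and 0 lower against FO B (Young). With genes of a mean of at least 5 FPKM, 2 members were lower against FO B (Young), as Dusp4 and Dusp16 were then not tested, and 2 against FO B (Aged), where Dusp4 was not tested. Between FO B (Aged) and FO B (Young), neither Dusp4 nor Dusp16 passed the test, and their log2 fold changes ranged from -0.25 to 0.016 and from -0.09 to 0.079 with 1 library left out, crossing 0.

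Beyond the single libraries named above, Dusp1 lost its call against FO B (Aged) with no filter on low values (FDR = 0.0832) and without the trend in limma (FDR = 0.0542), and Dusp4 with a pseudocount of 0.01 (FDR = 0.0536). Against FO B (Young), Dusp2 also lost its call with no filter, quantile normalization, TPM scaling or no trend (FDR = 0.0803, 0.129, 0.0510 and 0.0585), and Dusp16 with no filter (FDR = 0.0675). No alternative changed the call of Dusp5, Dusp6, Dusp7 or Dusp10 in either ABC comparison, apart from the study's fold threshold.

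Deviations of same-numbered libraries from their group means were correlated. Between ABCs (Aged) and FO B (Aged), where shared mice are possible, the correlations were 0.085, -0.019 and 0.108 for replicates 1, 2 and 3. ABC replicates 1 and 3 correlated best with their own number, and ABC replicate 2 with FO B replicate 1 (0.059). Over all comparisons the range was -0.092 to 0.138, both ends between aged and young FO B cells. The sample descriptions number the aged FO B and aged ABC libraries alike. Neither they nor the titles say whether equal numbers mean the same mouse, and these values do not settle it. No pairing was used in the main fit. With the replicate block, 3 members were higher and 3 lower in both ABC comparisons, as Dusp2 (FDR = 0.0628) and Dusp16 (FDR = 0.0859) lost their calls against FO B (Young). FPKM steps gave whole reads only for Dusp4 and Dusp5, so the depth behind the other members is known only approximately. For Dusp5 the steps gave 131, 198 and 204 reads in ABCs. Library depth and transcript length gave about 306, 463 and 477, so its read number is not settled either.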
